A study of Xenopus tropicalis with 11 samples.

Results

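The comparison described here is that of rabbit IgG pull-down with the input of the same replicate, in native chromatin of cultured XTN-6 cells of *X. tropicalis*. It uses 4 of the 11 libraries of the series, IgG and input of replicates 2 and 3, which were chosen by their deposited labels and paired by replicate number. Replicate 1 has an input but no IgG library in the data used here. All 4 libraries share 1 source, wild type cells of the NXR Nigerian strain at NF stage 20, with no treatment. The labels give "Whole tadpole" as the cell type beside XTN-6 cells as the source, and the study describes a cell line from dissociated embryos, so every library comes from 1 line and says nothing of other tissues. The study calls the replicates technical in one place and biological in another, and p-values here therefore cover only the spread between these libraries. The table holds the number of reads in each of 145051 bins of 10 kb, of which 144914 lie on chromosomes 1 to 10 of the v10 assembly.

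Micrococcal nuclease cuts the linker DNA between nucleosomes and releases mononucleosomes. In a pull-down, antibody on Protein A beads retains the nucleosomes that it binds, and whole IgG, which is directed at no chromatin protein, shows what beads and antibody retain without a target. The input is the chromatin before pull-down, here taken after it had been precleared on beads. Regions of interest are those where other ChIP libraries are often uneven, namely centromeres, where Cenp-a replaces histone H3 in part of the nucleosomes, chromosome ends, which are rich in tandem repeats, and arrays of rRNA and tRNA genes.

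IgG replicate 2 had 4053600 counts, against 107881690 in IgG replicate 3, 42471017 in input replicate 2 and 78281804 in input replicate 3. The median bin accordingly held 24, 639, 253 and 465 counts. A bin often counts both reads of a pair, and in IgG replicate 2 this is visible, since 64.5% of its bins held an even number of counts against 50.1% in IgG replicate 3. Counting errors below therefore take a read pair, not a read, as 1 observation. IgG replicate 3 is the more reliable of the pair for small differences, and each value below is given for both replicates. All ratios are of counts divided by the total on the 10 chromosomes of the library.

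At the scale of a single bin, IgG followed the input closely. Among the 140054 bins with at least 10 counts in each of the 4 libraries, the log2 ratio of IgG to input, after adding 0.1 CPM (counts scaled to a library total of 1000000) to each value, ran from -0.79 at the 5th percentile to 0.61 at the 95th in replicate 2. In replicate 3 the same percentiles were -0.21 and 0.20. In replicate 3, 96.0% of the bins lay within 1.2-fold of input, and in the shallow replicate 2 it was 47.2%. At least 2-fold above input in both replicates were 0 bins, and at least 2-fold below in both 0 bins, although replicate 2 alone had 414 and 2534 such bins. Replicate 3 alone had 0 above and 1 below.

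Most of this single-bin spread was of the size of the counting error. The SD of the log2 ratio without an added value was 0.43 in replicate 2, where read pairs alone would give 0.45, and 0.13 in replicate 3, where they would give 0.12. Over wider windows the counting error shrank faster than the spread. At 1 Mb the SD was 0.067 in replicate 2 against a counting error of 0.042, and 0.018 in replicate 3 against 0.012. At 5 Mb it was 0.053 against 0.019 in replicate 2 and 0.013 against 0.0054 in replicate 3. Broad unevenness thus exceeded counting error in both pairs, but it was small, and the ratio between the inputs of replicates 3 and 2 spread by 0.034 at 1 Mb and 0.029 at 5 Mb.

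**Figure D1:**
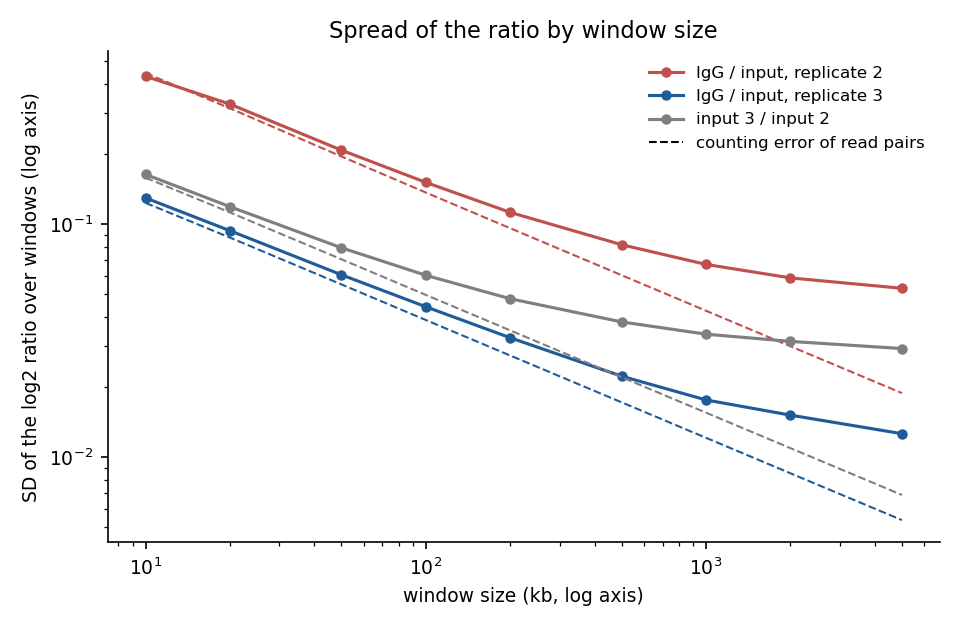
SD over windows of the log2 ratio of IgG to input in replicates 2 and 3, and of input 3 to input 2, against window size in kb (both axes logarithmic, solid lines with points), with the counting error of read pairs (dashed lines). At 10 kb the lines nearly meet the counting error, with an SD of 0.43 in replicate 2 and 0.13 in replicate 3, and at 5 Mb they lie above it, at 0.053 and 0.013.

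The replicates shared little of this pattern at small scale and more of it at large scale. Across bins of 10 kb, the Pearson correlation of the log2 ratio in replicate 2 with that in replicate 3 was 0.018 (n = 140054), and it was 0.055 at 100 kb (n = 14492), 0.17 at 1 Mb (n = 1448) and 0.24 at 5 Mb (n = 289). The ratio had the same sign in both replicates in 50.7% of the bins and in 60.6% of the 5-Mb windows. The pairs share no library, but neighbouring windows share base composition and repeats, so the values are a description.

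Bin by bin, with the replicate number as a block, edgeR's quasi-likelihood test called 0 of 144621 bins (0% of the bins tested). The limits were a Benjamini-Hochberg adjusted p under 0.05 and at least 5-fold. The study set the same FDR and fold limits on peaks called with MACS, a different unit and test, so the stringency is not the same. It reported no broad peaks for IgG replicate 3 and for H3 replicate 2, and did not say this of IgG replicate 2. At an unadjusted p under 0.05, below called the nominal level, there were 777 bins higher in IgG (0.537%) and 745 lower (0.515%). Together they were 1.05% of the bins, fewer than an exact test at this level would pass with no difference in any bin. The fit took reads, not read pairs, as counts, and with counts halved 2765 bins were nominally higher and 3277 lower. Nominal shares below thus depend on this setting and serve only to set classes of bins side by side. DESeq2 gave 98 higher and 45 lower, with 0 after adjustment. With no fold minimum edgeR called 3 bins lower in IgG (0.00207%) and 0 higher. These tests rest on 2 pairs, and the smallest two-sided p of an exact sign-flip test of 1 value over them is 0.5.

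Of the 3 bins called lower, 2 lie inside protein-coding genes on chromosomes 4 and 1, and the third in an array of rRNA genes on chromosome 7. The bin in *prkacb*, which encodes a catalytic subunit of protein kinase A, runs from 77776384 to 77786383 on chromosome 4. It held 20 counts in IgG replicate 2 against 636 in its input, and 861 in IgG replicate 3 against 977 in its input. The IgG level was thus below input in both replicates, at 0.329 and 0.639 times the input share, and the log2 fold change was -0.88 (standard error 0.17, adjusted p = 0.025 by edgeR's quasi-likelihood test). The bin in *ccdc125*, which encodes a coiled-coil protein, runs from 182295222 to 182305221 on chromosome 1 and held 13 IgG counts against 506 input counts in replicate 2, and 837 against 922 in replicate 3. Its log2 fold change was -0.86 (standard error 0.18, adjusted p = 0.037 by the same test).

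In both genes the inputs of the pairs also stood apart from the remaining input. Input replicates 2 and 3 were 2.41 and 2.01 times input replicate 1 in the *prkacb* bin and 1.82 and 1.80 times in the *ccdc125* bin. H3, the bulk nucleosome pull-down, was likewise below the input of its replicate there, at 0.844 and 0.764 times in *prkacb* and 0.893 and 0.689 times in *ccdc125*. These ratios use the same inputs as denominators as the IgG ratios do. Whether the input or the IgG level departs from the rest of the genome in these bins was not tested. Neither bin was called with DESeq2, with all 11 libraries or with all 3 inputs in the fit (adjusted p of 1 in each), and the *ccdc125* call was also lost with TMM factors (adjusted p = 0.083) and with no replicate block (adjusted p = 0.82), all by edgeR but the first. The log2 fold changes stayed negative, at -0.99 and -1.05 with DESeq2 for *prkacb* and *ccdc125*, -0.70 and -0.64 with all 11 libraries and -0.58 and -0.52 with all 3 inputs.

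The bins that moved most in the same direction in both replicates were chosen by their smaller log2 ratio, so their values are given with no test of the choice. On the higher side they were thinly covered. The first, on chromosome 7 from 8980492 to 8990491, held 17 IgG counts against 106 input counts in replicate 2, a ratio of 1.68, and 358 against 154 in replicate 3, a ratio of 1.69. The others lie at 88227366 on chromosome 9, in LOC101733063 (ratios 1.96 and 1.57), at 98417857 on chromosome 2, in *caln1*, a calneuron gene (1.56 and 1.62), at 460001 on chromosome 4, where *spty2d1* and *uevld* overlap the bin (1.49 and 1.47), and at 54744420 on chromosome 2 with no gene (1.76 and 1.46). All 5 had between 0.218 and 0.748 times the median input, and their adjusted p was 1 by edgeR's quasi-likelihood test. To be ranked, a bin needed at least 10 counts in each of the 4 libraries. In replicate 2 the *caln1* bin held 10 IgG counts against 67 input counts, and the LOC101733063 bin 15 against 80. At the input share both would have held under 10, so they passed this limit only because IgG was high there.

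On the lower side the same rule gave the *prkacb* and *ccdc125* bins, a bin at 70855893 on chromosome 5 in *eya4*, an Eya family transcription cofactor and phosphatase gene (ratios 0.648 and 0.620), one at 59964911 on chromosome 8 with no gene (0.444 and 0.685), and one in the rRNA gene array of chromosome 7 at 76846384 (0.597 and 0.671). The *eya4* bin held 12 IgG counts in replicate 2 against 194 in the input, and 330 against 386 in replicate 3. Only the *eya4* bin had less than the median input, at 0.802 times, and the other 4 had 2.00 to 4.82 times. The inputs that give this depth are also the denominators of the ratios that chose the bins, so a low input in the higher bins and a high one in the lower bins follows in part from the choice.

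Counts summed over 1-Mb windows gave 1 call among 1448 windows. It was lower in IgG (0.0691% of the windows), and 0 were higher. At the nominal level 35 windows differed (2.42%), 19 of them higher (1.31%) and 16 lower (1.10%). DESeq2 also called 1 window, and 34 higher and 15 lower ones at the nominal level. The called window runs from 76006384 to 77006383 on chromosome 7 and held 3528 IgG counts against 41763 input counts in replicate 2, and 95987 against 76448 in replicate 3. IgG was 0.885 and 0.911 times input there, a log2 fold change of -0.15 (standard error 0.03, adjusted p = 0.0044 by edgeR's quasi-likelihood test). The difference belonged to 16 bins of this window with over 2 times the median input, since without such bins the log2 fold change was -0.01 (standard error 0.04, adjusted p = 0.99 by the same test). The call was also lost with TMM factors (log2 fold change -0.15, adjusted p = 0.056), with all 3 inputs (-0.43, standard error 0.30) and with all 11 libraries in the fit (-0.04), where the adjusted p was 1.0 in both (edgeR).

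These deep bins lie at an array of 38 annotated rRNA genes, from 76756741 to 76980624 on chromosome 7, 56.6 Mb from the nearest chromosome end. In vertebrates the large rRNAs of the ribosome are transcribed from tandem arrays in the nucleolus, whereas the short 5S rRNA is transcribed from arrays elsewhere. The gene table gives the class, symbol and limits of each gene but no product name, and not which rRNA the genes of this array encode. In this locus 23 of the 38 genes are over 1000 bp, the longest of them 4174 bp, while the genes of the other rRNA loci with 5 genes or more are between 116 and 121 bp. Genes at most 200 kb apart were joined to a locus, a choice made after the values were seen.

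Over the 23 bins of the chromosome 7 array, IgG replicate 2 had 1627 counts against 22235 in its input, and IgG replicate 3 had 46016 against 40322. The ratios were 0.767 in replicate 2 and 0.828 in replicate 3, with counting errors of 0.05 and 0.01 on the log2 scale. Below input in both replicates were 21 of the 23 bins and above in both 1 bin. Singly, the bins ran from 0.565 to 1.18 times input in replicate 2 and from 0.646 to 1.07 times in replicate 3. At the nominal level, 13 of the 23 bins were lower and 0 higher by edgeR's quasi-likelihood test. Of all bins 0.515% were lower, and of those with over 2 times the median input 1.09%. The array was reached through the window called on these same counts, and its bins are neighbours, so this count is no separate support. Called was 1 of the 23 bins, from 76896384 to 76906383 (82 IgG counts against 1477 in replicate 2, 2525 against 2648 in replicate 3). That call was lost with TMM factors (log2 fold change -0.61, adjusted p = 0.083), and also with DESeq2 (-0.61), all 11 libraries (-0.44) and all 3 inputs (-0.87), each with an adjusted p of 1 (edgeR but for DESeq2).

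Other libraries also departed from each other in this array. H3 was 0.810 and 0.914 times the input of replicates 2 and 3, and Cenp-a 0.802 and 0.903 times, all with the same inputs as denominators. The pull-downs of replicate 1 went the other way. Cenp-a and H4 of replicate 1 stood at 14.1 and 10.5 times the median bin of their library there, and input replicate 1 at 8.23 times. The inputs themselves differed, since replicates 2 and 3 had 0.474 and 0.466 times the share of input replicate 1. Against input replicate 1 the IgG levels would thus be lower still, and the part of the inputs in the difference was not tested.

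The short rRNA genes were closer to input than this array in both replicates. Their 9 loci with 5 genes or more lie 0.005 to 2.4 Mb from a chromosome end, and the array 56.6 Mb inside. Among loci of this size, gene length and position thus cannot be told apart. Short genes that lie alone in the interior cover 1 bin each. The one at 36498771 on chromosome 6 had ratios of 1.07 and 1.05 in replicates 2 and 3. The one at 77777594 on chromosome 7, *rn18s*, had 0.956 and 1.07. Their counting errors on the log2 scale were 0.46 and 0.40 in replicate 2 and 0.14 and 0.12 in replicate 3, so both were within counting error of input. Over the outer 5 Mb as a whole IgG was 1.08 and 1.01 times input in replicates 2 and 3. Of these 9 loci, 6 were above input in replicate 2 and 9 in replicate 3, and the ratios of all 9 ran from 0.951 to 1.17 and from 1.02 to 1.08. The largest of them, with 161 genes between 434341 and 476958 on chromosome 5, held 8803 IgG counts against 78542 input counts in replicate 2 and 212461 against 149218 in replicate 3. Its ratios were 1.17 and 1.03, and all 5 bins were above input in both replicates. At the nominal level, 3 of the 41 bins of these 9 loci were higher and 0 lower, and 0 were called. Among all bins 0.537% were nominally higher, and among those with over 2 and over 20 times the median input 2.10% and 20.8%. H3 was below input at all 9 loci in both replicates, on the same denominators. Over the outer 5 Mb as a whole, where these loci lie, the log2 ratio of H3 to input was 0.04 in replicate 2 and -0.25 in replicate 3. The replicate 3 values are thus not particular to the loci. The input here was up to 63.4 times the median bin as the mean of a locus and 122 times in a single bin, and reads of any mapping quality were counted. How reads were shared between copies of these genes was not analysed here.

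**Figure D2:**
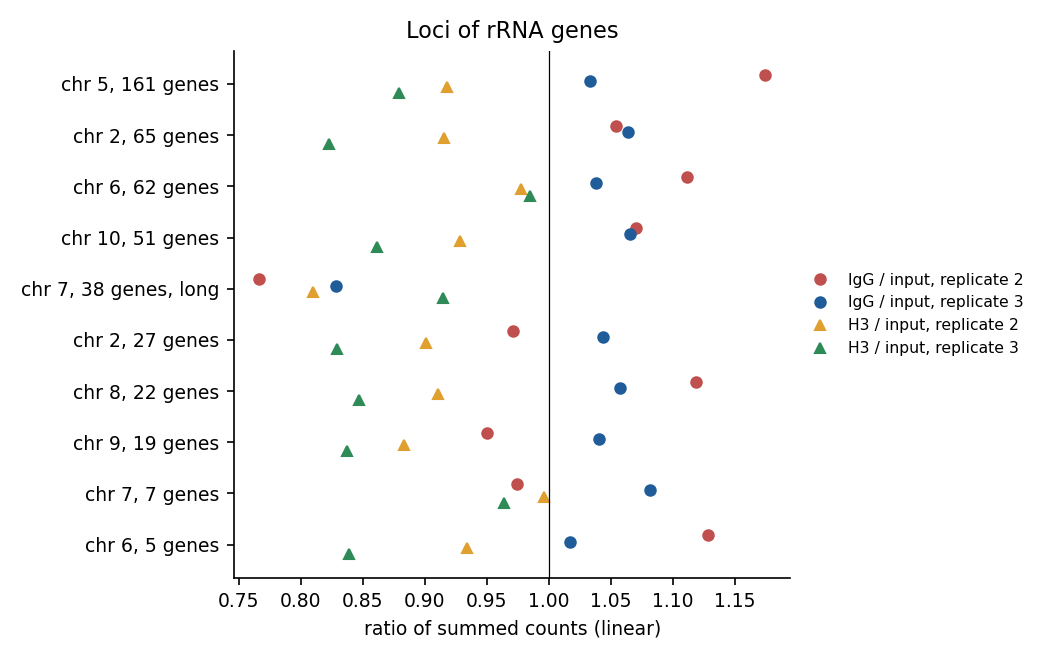
Ratio of summed counts to the input of the replicate (linear axis) at the 10 rRNA gene loci with at least 5 genes, ordered by number of genes, for IgG (circles) and H3 (triangles) in replicates 2 and 3. The locus of chromosome 7 with 38 genes, marked "long" for its genes over 1000 bp, lies at 0.767 and 0.828 for IgG, to the left of all other IgG points, which lie between 0.951 and 1.17.

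Along the chromosomes, IgG was higher towards the ends in replicate 2 and nearly level in replicate 3. Taking the outer 5 Mb at each of the 20 ends together (10000 bins) and the interior over 30 Mb from an end (85672 bins), the log2 ratio of IgG to input was 0.15 higher at the ends in replicate 2 and 0.01 higher in replicate 3. The mean difference of 0.08 was smaller than its SD of 0.10 (n = 2), so an excess at the ends did not hold up against the spread between replicates. All 20 ends were above input in replicate 2, from 1.04 to 1.12 times, and 9 of 20 in replicate 3, from 0.988 to 1.05 times.

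By distance, the ratio of IgG replicate 2 to its input was 1.11 times in the outermost 1 Mb, 1.07 times from 1 to 5 Mb, 1.04 times from 5 to 10 Mb and 0.976 times over 30 Mb inside. Replicate 3 was 1.03 times input in the outermost 1 Mb and between 0.996 and 1.00 times in each of the 5 other classes. The decline over many megabases was thus seen in replicate 2 alone. In the outermost 1 Mb the summed counts were above input in both, but the median bin of replicate 3 was not, with a log2 ratio of -0.004 against 0.09 in replicate 2, and 7 of the 20 windows of 1 Mb there were above input in both. Counting error was at most 0.006 on the log2 scale in any of these classes.

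Other ratios also changed with distance from the end, and not all in the same direction. In the outer 5 Mb the log2 ratio of input 3 to input 2 was 0.05, that of input 2 to input 1 was -0.20 and that of input 3 to input 1 was -0.14. The log2 ratio of H3 to input was 0.04 in replicate 2 and -0.25 in replicate 3. With input replicate 1 as the denominator of both IgG libraries, the mean difference between outer 5 Mb and interior took the opposite sign, -0.14. The gradient of a ratio thus moved with the choice of input by more than its size, and which library carries it was not tested.

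**Figure D3:**
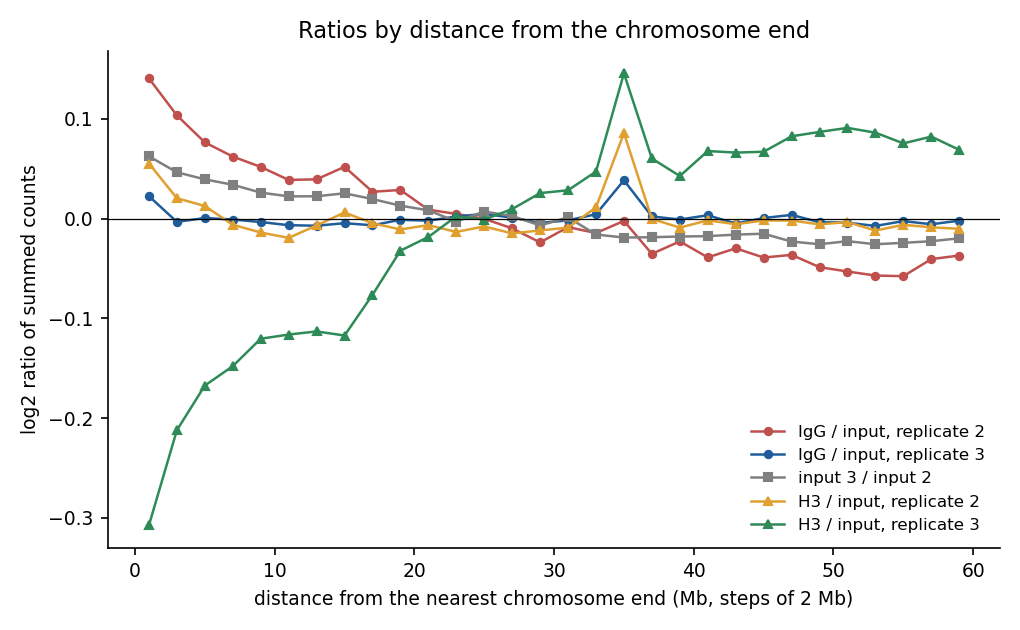
Log2 ratio of summed counts against distance from the nearest chromosome end in steps of 2 Mb, for IgG and H3 over the input of replicates 2 and 3 and for input 3 over input 2. In the first step IgG lies at 0.14 in replicate 2 and 0.02 in replicate 3, input 3 over input 2 at 0.06, and H3 at 0.06 in replicate 2 and -0.31 in replicate 3.

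In the fits, the windows at the ends leaned the same way as replicate 2. The fits hold that replicate, so the counts below are not a result independent of it. Of the 100 windows of 1 Mb within 5 Mb of an end, 14 were nominally higher in IgG and 0 lower, beside 1.31% and 1.10% of all windows, and 40 were above input in both replicates, beside 19.2% of all windows. Over 30 Mb from an end 1 of 856 was higher and 15 were lower. None of the 100 was called.

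The 5 windows with the largest log2 fold change above input include 4 at chromosome ends. The last full window of chromosome 5, from 163013749 to 164013748, held 17949 IgG counts against 165391 input counts in replicate 2 and 467958 against 318177 in replicate 3. Its ratios were 1.14 and 1.07, and its log2 fold change was 0.14 (standard error 0.07). The window from 180015222 to 181015221 on chromosome 2 had ratios of 1.12 and 1.06, the first window of chromosome 5 had 1.15 and 1.02, and the first of chromosome 6 had 1.12 and 1.05. All 4 were above input in both replicates and had 4.04 to 6.72 times the median input. Without bins over 2 times the median input their log2 fold changes were smaller, at 0.07 and 0.06 for the ends of chromosomes 5 and 2 and 0.03 for the starts of both chromosomes 5 and 6.

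The fifth window lies in the interior of chromosome 9, from 55004420 to 56004419, with 11.7 times the median input and 32 bins over 2 times the median. It differed from the ends in having the larger IgG ratio in replicate 3, 1.11 against 1.03 in replicate 2. H3 was 1.25 and 1.36 times input there, on the same denominators. Without its deep bins the log2 fold change of IgG was -0.01. It gives rise to the single peak between 34 and 36 Mb in the plot by distance. The adjusted p of all 5 windows was 0.99 by edgeR's quasi-likelihood test.

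The ratio of IgG to input also went with the input depth of the bin. To keep counting error out of this relation, bins were ranked by input replicate 1, which is in neither ratio. From the lowest to the highest decile of the bins, the log2 ratio of IgG to input went from -0.07 to 0.08 in replicate 2 and from -0.02 to 0.01 in replicate 3. The highest decile exceeded the lowest by 0.15 in replicate 2 and by 0.04 in replicate 3, with a mean of 0.10 and an SD of 0.08 (n = 2). The direction was thus the same in both pairs, but the sizes differed by more than their mean. Bins were also ranked by the input in their own ratio, where counting error of the denominator enters the ranking. The mean difference then took the opposite sign, -0.043. Ranked by the input of the other replicate, which is not in the ratio, the mean was 0.081, with 0.129 in replicate 2 and 0.032 in replicate 3. Other ratios also changed over the deciles of input replicate 1. From the lowest to the highest, the log2 ratio of input 3 to input 2, with no pull-down, went from -0.017 to 0.025. That of H3 to input went from -0.010 to 0.020 in replicate 2 and from 0.070 to -0.120 in replicate 3. Which library carries the change with depth was not tested.

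**Figure D4:**
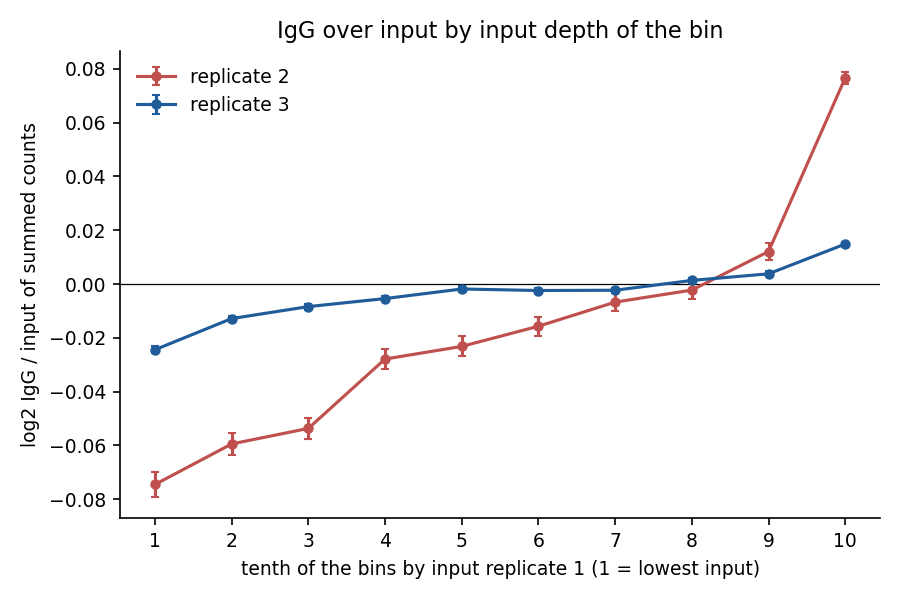
Log2 ratio of IgG to input of summed counts in deciles of the bins ranked by input replicate 1, for replicates 2 and 3, with counting error of read pairs as bars. Replicate 2 goes from -0.07 in the lowest to 0.08 in the highest decile, and replicate 3 from -0.02 to 0.01.

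The 149 bins with over 20 times the median count of input replicate 1 had the highest ratios, 1.10 in replicate 2 and 1.05 in replicate 3. At the other end, the 864 bins with under 0.25 times it had 0.951 and 0.938. These thinly covered bins held 2133 and 56227 IgG counts in all, with counting errors of 0.05 and 0.01 on the log2 scale. Their median bin had a log2 ratio of 0 in both replicates, the value that the added 0.1 CPM gives to a bin empty in both libraries. Of all bins on the chromosomes, 417 were empty in IgG replicate 2 and 172 in IgG replicate 3, and 198 and 181 in their inputs. This median thus says little of the bins that were covered. Of the 130 bins with over 20 times the median of input replicates 2 and 3, 27 were nominally higher and 0 lower (20.8% against 0.537% of all bins). Such bins hold more counts, so that a given difference gives a lower p in them than elsewhere. The H3 ratio was 0.13 in replicate 2 and -0.08 in replicate 3 on the log2 scale in the 149 bins.

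Position and depth were partly the same bins. The outermost 1 Mb had 2.18 times the median input on average, but its median bin had 1.16 times. Depth in this paragraph is that of input replicates 2 and 3, which are also the denominators, so their counting error enters the classes. Among interior bins over 30 Mb from an end, those with over 2 times the median input were 1.02 and 1.03 times input in IgG replicates 2 and 3, and the remaining ones 0.972 and 0.998 times. In the outer 5 Mb the deep bins were 1.12 and 1.03 times input and the remaining ones 1.07 and 0.999 times. In summed counts deep bins were thus above the others in both regions and both replicates, although in the outer 5 Mb of replicate 3 the median deep bin, at -0.009 on the log2 scale, was below the median of the others, at -0.002. In the sums, a difference between the regions within a depth class was seen in replicate 2 alone.

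At the centromeres IgG was barely above input. Main Cenp-a clusters were taken from the 77 bins of 144609 (0.0532%) that edgeR's quasi-likelihood test called at least 5-fold higher in Cenp-a than in input, joined at 200 kb, with 1 cluster a chromosome and 90 bins in all. Over these bins IgG had 8016 counts against 80116 input counts in replicate 2, and 217625 against 147870 in replicate 3. The log2 ratio was 0.07 in replicate 2 and 0.09 in replicate 3, with counting errors of 0.02 and 0.007, and the mean was 0.08 with an SD of 0.02 (n = 2). Cenp-a was 6.32 and 8.35 times the same inputs in these bins, which had chosen them.

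By chromosome, 7 of the 10 clusters were above input in both replicates, 0 below in both, and those of chromosomes 1, 2 and 8 below in replicate 2 and above in replicate 3. In replicate 3 the ratio ran from 1.03 on chromosome 7 to 1.11 on chromosome 6, and all 10 were above 1. In replicate 2 it ran from 0.987 on chromosome 1 to 1.09 on chromosome 5, and the counting error of a cluster reached 0.14 on the log2 scale, so the clusters cannot be ordered there. Of the 90 bins, 6 were nominally higher, 0 were nominally lower, and 0 were called. The clusters had 3.54 times the median input, and among bins with over 2 times the median outside them 2.00% were nominally higher.

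Next to the clusters IgG was close to input. Within 0.5 Mb of a cluster IgG was 1.02 and 1.00 times input, and from 0.5 to 5 Mb away 1.01 and 1.00 times. H3 was 0.13 and 0.40 above its input in the clusters on the log2 scale. Against input replicate 1 the mean log2 ratio of IgG in the clusters was 0.23, so the size there also moved with the input library used.

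**Figure D5:**
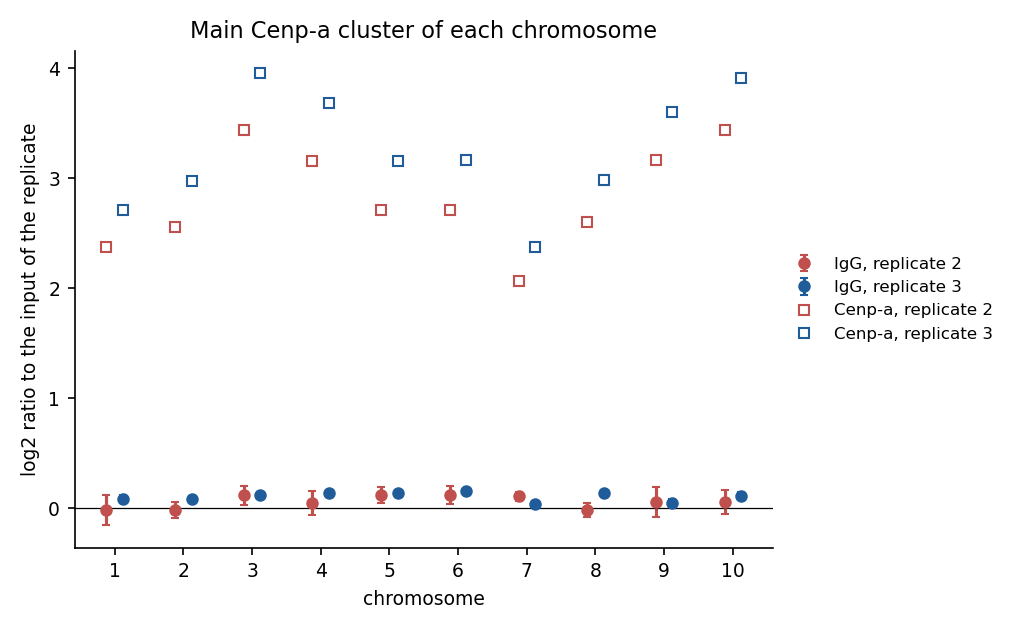
Log2 ratio to the input of the replicate in the main Cenp-a cluster of each chromosome, for IgG (filled circles, bars are the counting error of read pairs) and Cenp-a (open squares) in replicates 2 and 3. IgG lies within 0.2 of 0 on every chromosome, below the squares, which lie between 2.07 and 3.95.

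Genes as a class made almost no difference to IgG recovery. Bins that hold a limit of a protein-coding gene (33024 bins) were 1.01 and 0.999 times input, bins inside a gene without such a limit 0.994 and 0.998 times, and bins without a gene (53694) 1.00 and 1.00 times. Bins with a gene limit minus bins without a gene gave a mean log2 difference of 0.002 with an SD of 0.01 (n = 2). A difference between them was thus not larger than the spread between replicates.

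Among the gene groups, tRNA genes, which are transcribed by RNA polymerase III and lie in large clusters in this genome, were slightly above input. The ratios over their 413 bins were 1.07 in replicate 2 and 1.02 in replicate 3, and the median log2 fold change was 0.02 beside -0.01 over all bins. Of these bins 8 were nominally higher and 3 nominally lower, together 2.66% beside 1.05% of all bins. They had 2.20 times the median input on average, and all bins with over 2 times the median had ratios of 1.05 and 1.01. Of the 12 loci with the most tRNA genes, 10 were above input in both replicates and 1 below in both. Among all 1-Mb windows, which differ from the loci in length and depth, 19.2% were above in both and 36.5% below. The count takes no account of counting error. The locus of 135 genes on chromosome 10 counts as above at 1.001 and 1.000, with counting errors of 0.06 and 0.02 on the log2 scale. The largest of the 12, with 470 genes between 135270949 and 136149165 on chromosome 3, had ratios of 1.09 and 1.03. The one below in both, with 86 genes from 127542922 to 127607455 on chromosome 5, had 0.746 and 0.980. Its counting errors were 0.18 and 0.05 on the log2 scale, so in replicate 3 it was within counting error of input.

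Bins of snRNA and snoRNA genes (241), whose RNAs serve splicing and the modification of other RNAs, had 1.05 and 1.01 times input, with 4 nominally higher and 3 nominally lower (2.90% beside 1.05% of all bins). Their largest locus, 244 genes from 117984770 to 118515271 on chromosome 8, had 1.05 and 1.01. Bins of miRNA genes (142) had 0.994 and 0.990 times, with 0 higher and 0 lower. The 45 bins of hox genes, the transcription factor genes that pattern the body axis, had 0.969 and 0.984 times, and the 93 bins of olfactory and vomeronasal receptor genes 0.969 and 0.976 times, with 0 and 1 bins lower and 0 higher. Ribosomal protein genes (174 bins) had 0.998 and 1.01 times, with 1 higher and 1 lower, together 1.15%. For the receptor genes the nominal share was 1.08%, and for miRNA and hox genes 0%, beside 1.05% of all bins. In all of these groups 0 bins were called.

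The 149 histone gene bins had 1.01 and 1.02 times input, but 121 of the bins on chromosome 9 lie under a single annotation, *h2ac14*, of 1194 kb. The other 27 genes cover 28 bins, with 0.949 and 1.02 times input. Long noncoding RNA genes (4743 bins) had 1.01 and 0.995 times, with 16 nominally higher and 15 lower, together 0.654%. Protein-coding genes (87309 bins) had 0.997 and 0.999 times, with 451 nominally higher and 413 lower, together 0.990%, and the *prkacb* and *ccdc125* bins called. Neither share exceeded the 1.05% of all bins. The median log2 fold change was -0.01 in both groups, the value over all bins. Bins of all rRNA genes together had 1.08 and 1.01 times input, a sum over the long and short genes described above.

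Whole chromosomes differed by less than 4%. Replicate 2 ran from 0.987 times input on chromosome 1, the longest, to 1.03 times on chromosome 10, the shortest. Replicate 3 ran from 0.998 times on chromosomes 1, 7 and 8 to 1.01 times on chromosome 9. Chromosome 9 was above input in both, at 1.01 and 1.01 times, and holds the deep interior window described above. On the 137 bins of unplaced scaffolds IgG had 2712 counts against 26983 in replicate 2 and 70926 against 51932 in replicate 3, which is 1.05 and 0.991 times input. Of 104 scaffold bins tested 0 were called (0%), and at the nominal level 0 were higher and 2 lower (1.92%).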

How the data were processed

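The authors trimmed read pairs with Trimmomatic (0.39), aligned them with minimap2 (2.17-r941) to the unmasked v10 genome, sorted them with SAMtools (1.9) and counted reads per 10-kb bin with multiBamSummary of deepTools (3.3.0) at a mapping quality of 0 or more, and deposited these raw counts. Removal of duplicates is not given in the sources used here. Chromosome numbers and genes come from the RefSeq gene table of UCB_Xtro_10.0, matched by the last gene of each sequence to within 182731 bp. The table has gene limits but no strand, so bins with a gene start became bins with either limit of a protein-coding gene. Sequence and base composition were not analysed here.

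Bins in which 2 or more of the 4 libraries held 10 counts or more were tested with edgeR (4.0.16, R 4.3.3; glmQLFit with robust estimation, glmQLFTest), with totals on the 10 chromosomes as library sizes and the replicate as a block. The block follows the study, whose example command for peak calling set 1 ChIP library against 1 input under a single replicate's name. Deviations from group means correlated by -0.004 between same-numbered libraries, which with 2 libraries a group says little. Regions were compared by summed counts. The alternatives were TMM factors, DESeq2 (1.42.0), no filter, no block, halved counts, other input libraries, leaving out a replicate, and other summaries. Counting errors and intervals cover counting error only.

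Named positions follow a rule: up to 3 called bins per direction, the 5 most changed windows per direction among those called or, if none, among all, the 5 bins per direction whose smaller log2 ratio of both replicates was largest, and the main Cenp-a clusters and chromosomes. Loci of RNA genes and the count without *h2ac14* were added later. The members, rules and gene lists were chosen with earlier results of these data known.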

Additional observations from a re-analysis of the deposited data

How the results depend on the processing

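Only 2 pairs exist and IgG replicate 2 has 24 counts in the median bin, where the counting error of a bin's log2 ratio is 0.45, so small single-bin differences were not detectable in it. The count of bins called at 5-fold stayed at 0 with TMM factors, DESeq2, no filter, no replicate block, halved counts, all 11 libraries in 1 fit and all 3 inputs. It was 3 with no fold minimum, and it ran from 0 without IgG replicate 2 to 160 without IgG replicate 3, where the shallow library stands alone and is assumed to vary like the inputs. The 1 called window was called with DESeq2 and without the replicate block (1 window in both), but 0 windows were called with TMM factors, with all 11 libraries in 1 fit, with all 3 inputs and without bins over 2 times the median input. The count ran from 1 without IgG replicate 2 to 52 without IgG replicate 3. The adjusted p of that window ran from 5.3e-05 with DESeq2 to 1.0 with all 3 inputs, and was 0.056 with TMM factors. Bins called lower with no fold minimum numbered 1 with TMM factors and 12 with halved counts.

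The log2 difference between outer 5 Mb and interior ran from 0.0098 without replicate 2 to 0.152 without replicate 3, and was -0.145 with input replicate 1 as denominator. In the Cenp-a clusters the log2 ratio was 0.057 as a median of bins and 0.231 over input replicate 1, and ran from 0.068 to 0.095 when a replicate was left out. The difference between deciles of input depth was -0.043 when bins were ranked by the input in their own ratio, where counting error of the denominator enters the ranking. It was 0.081 when they were ranked by the input of the other replicate, and ran from 0.039 to 0.151 when a replicate was left out. The difference at gene limits ran from -0.0052 to 0.0094 in the same way. The cause of the other changes was not tested.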
